A study of Apis mellifera with 5 samples.

Results

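Kinases transfer a phosphate group from a nucleotide such as ATP to a protein, a lipid or a small molecule. In secretory glands of insects, as in other animal tissues, protein and lipid kinases relay hormone, nutrient and growth signals, and cyclin-dependent kinases and their relatives control division. The kinase unigenes described here were the 117 unigenes, of 20522 with a read in any library, whose best protein match had kinase in its name. A unigene is an assembled transcript or a single EST of the honey bee gene index. Names holding myosin light chain kinase, titin or mitochondrial were left out, as were unigenes with fewer than 10 reads summed over the libraries. Of 174 names that held kinase, 166 remained after those words were applied, and 49 of these had too few reads.

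The libraries were made from hypopharyngeal glands (HGs), the paired head glands with which worker bees secrete royal jelly. Full-sister workers of Apis mellifera carnica Pollmann, raised from an instrumentally inseminated queen, were sampled at 5 ages, on day 3 after emergence from the comb and again on day 6, day 9, day 12 and day 16. RNA of 30 bees was pooled at each age and sequenced as 1 library, so no comparison had a replicate check. No treatment, allele or transgene distinguished the groups, and age was the only factor in the labels. The paper also lists an RNA integrity that differed between the libraries and was lowest on days 12 and 16. With 1 library per age, RNA quality and age cannot be told apart.

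The rule took in more than protein and lipid kinases. By name, 81 members were protein, lipid or inositol kinases, 22 were kinases of metabolites or nucleotides and 14 were proteins that bind or act on kinases. The 81 comprised 12 tyrosine kinases, 16 cell cycle, CDK-like and MAK-like kinases, 5 kinases of MAP kinase cascades or the Ste20 family, 14 AGC kinases, 8 calcium/calmodulin and AMPK-like kinases, 6 casein kinase 2, DYRK and HIPK kinases, 14 other protein kinases and 6 lipid and inositol kinases. The AGC group is the family of the cAMP-dependent, cGMP-dependent and calcium-lipid-dependent kinases. The matches lay mainly in ants, with 51 in Camponotus floridanus and 51 in Harpegnathos saltator, and 8 in the honey bee itself. The names therefore give a family and not a proven honey bee gene, and 24 members shared 11 names, so that some may be parts of the same gene. A gene ontology term for kinase activity accompanied 68 members (58.1%).

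Names were given only for unigenes that had a read on day 3 and an RPKM under 10 at that age. RPKM is the read count per kilobase of unigene, scaled to the size of the library. The kinase unigenes were thus weakly expressed on day 3 by construction, and kinases above that level were outside the set. So were kinases without a read on day 3, whatever their level at later ages. A comparison with day 3 used the library that set this limit, while comparisons between later ages did not. The 3098 annotated unigenes with a named match and at least 10 reads passed the same limit, and the shares called and the medians of ratios are set beside theirs.

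The members were read thinly. The median member had 33 reads over all libraries against 34 for annotated unigenes, 43 members had at least 50 reads and 20 had at least 100. The libraries held between 1207515 reads (day 9) and 1815654 reads (day 16) that matched only 1 unigene. At every age 106 members had a read, 3 had none on day 9 and 9 had none on day 12. A count of 0 allows up to 3 reads, so these were undetected at this depth and not shown to be absent. The median RPKM of the members was 5.31, 5.00, 4.70, 3.36 and 4.19 at the 5 ages in order, and that of annotated unigenes was 5.12, 4.77, 4.23, 3.82 and 4.39, both lowest on day 12. Their summed reads made up 0.0985%, 0.0988%, 0.0915%, 0.0780% and 0.113% of the libraries, while those of annotated unigenes made up 2.26%, 2.42%, 2.44%, 2.67% and 3.9%. On day 12 the share of the members was thus at its lowest and that of annotated unigenes was not. At the limit of the rule, 6 members had exactly 10 reads and 6 unigenes just outside had 9.

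Each pair of ages was compared by the test of Audic and Claverie on the reads of the 2 libraries. A unigene was called when its false discovery rate over all unigenes tested was at most 0.001 and its log2 ratio of RPKM was at least 1 in size. This test compares 2 libraries and not 2 ages, and its 95% intervals cover counting error only.

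On day 16, 7 kinase unigenes were higher than on day 3 and none was lower. They were the kinases named protein kinase DC2, cGMP-dependent protein kinase, protein kinase C delta, Cad96Ca, ICK and SBK1, together with the metabolic enzyme phosphoenolpyruvate carboxykinase. The 7 were 5.98% of the members, beside 5.23% of annotated unigenes and 2.51% of all unigenes tested called higher, and beside 0.807% of annotated and 9.9% of all unigenes called lower. On day 12, 2 members were higher than on day 3 (1.71%, beside 3.2% of annotated and 1.8% of all unigenes) and 3 were lower (2.56%, beside 1.81% of annotated and 12.5% of all unigenes). No member was called on day 6 against day 3, where 0.775% of annotated and 0.574% of all unigenes were higher and 0.0% and 0.289% were lower. Nor was any member called on day 9 against day 3, where 2.13% of annotated and 1.27% of all unigenes were higher and 0.194% and 6.31% were lower. Over all 10 pairs of ages 10 members (8.55%) were called at least once, beside 8.81% of annotated unigenes. The kinase unigenes were therefore called about as often as other unigenes of the annotation.

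**Figure D1:**
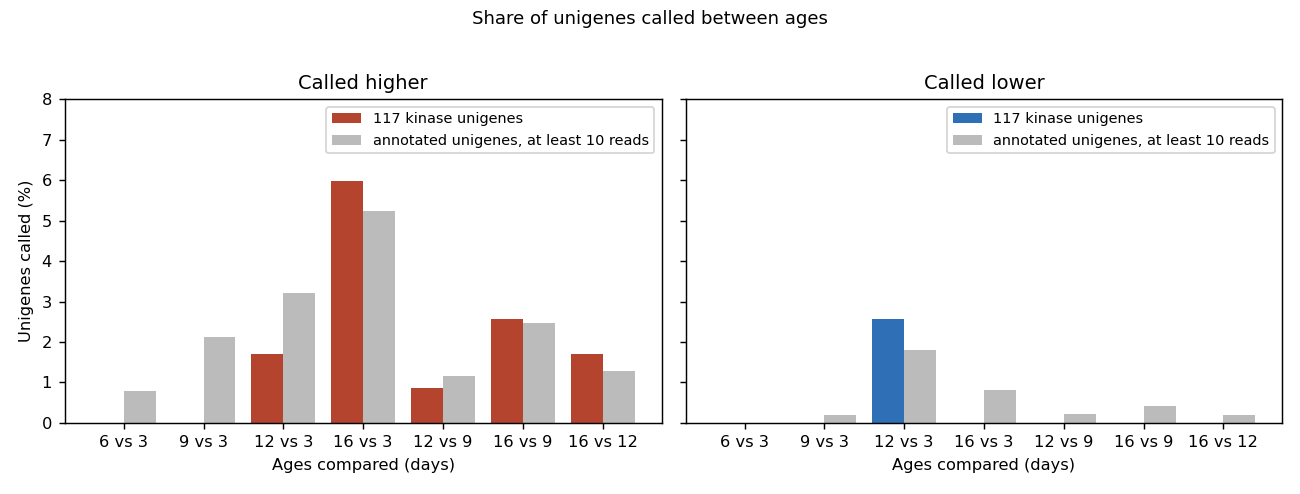
Share of unigenes called higher (left) or lower (right) in 7 comparisons of ages, in percent, for the 117 kinase unigenes (coloured bars) and the annotated unigenes with at least 10 reads (grey bars). On day 16 against day 3 the bars stand at 5.98% and 5.23%.

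Comparisons between later ages did not involve the day 3 library. From day 9 to day 12, 1 member was higher (background 1.17% of annotated and 0.788% of all unigenes) and none lower (0.227% and 1.44%). From day 9 to day 16, 3 were higher (2.46% and 1.54%) and none lower (0.42% and 1.45%). From day 12 to day 16, 2 were higher (1.29% and 2.33%) and none lower (0.194% and 0.748%). Members called between later ages were again about as frequent as annotated unigenes. From day 6 to day 16, 5 members were higher (3.62% and 1.92%) and none lower (0.129% and 3.67%), and from day 6 to day 12, 2 were lower (0.744% and 6.41%) and none higher (1.75% and 1.19%). Between days 6 and 9 no member was called (0.647% and 0.378% higher, 0.0647% and 0.803% lower).

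The kinase that rose by the most reads was TC21762, matched to protein kinase DC2, the Drosophila name of a relative of the catalytic subunit of cAMP-dependent protein kinase. From day 3 to day 16 it had 11, 22, 25, 46 and 96 reads at the 5 ages. Its RPKM was 5.75, 12.9, 18.4, 30.4 and 47.0, so that each library stood above the one of the age before. The log2 ratio was 2.40 (95% interval 1.43 to 3.50) on day 12 and 3.03 (2.13 to 4.08) on day 16, both against day 3. Day 16 was also called higher than day 6 (log2 ratio 1.87) and day 9 (1.35). Of all calls of members, that of TC21762 on day 16 against day 3 was the only call kept when a coefficient of variation of 0.2 between replicates was assumed.

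The members named as cAMP-dependent protein kinase catalytic subunits, the enzyme that cyclic AMP releases from its regulatory subunits, did not share this course. NP9553040, with that name, had an RPKM of 7.25, 7.43, 5.95, 7.63 and 4.52, and it was not called. Both other unigenes of that name had fewer than 30 reads and were not called.

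NP9551582 was matched to isozyme 1 of the cGMP-dependent protein kinase, which cyclic GMP switches on. It had 1 read on day 3 and 10, 9, 21 and 19 reads on days 6, 9, 12 and 16, with an RPKM of 0.271, 3.03, 3.43, 7.19 and 4.82. The log2 ratio to day 3 was 4.73 on day 12, with an interval of 2.09 to 10.1 set by the lone read, and 4.15 (1.50 to 9.53) on day 16. NP9551583 carried the same name and was looked at after its values were seen. Its reads ran the other way, at 15, 8, 4, 4 and 10, with an RPKM of 1.72, 1.02, 0.643, 0.578 and 1.07 and a log2 ratio of -1.57 (-3.62 to 0.08) on day 12 against day 3. It was not called, and its interval did not overlap that of NP9551582. Since NP9551582 was picked by its call on that ratio, this is a description and not a test.

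Protein kinase C delta, a kinase that diacylglycerol activates at membranes, was the match of NP9553584. Its reads were 25, 24, 29, 49 and 74 and its RPKM 7.85, 8.43, 12.8, 19.4 and 21.7, near level until day 6 and then higher at each age. Day 16 was called higher than day 3 (log2 ratio 1.47, 0.80 to 2.18) and day 6 (1.37, 0.69 to 2.10). Of the 3 other unigenes with a protein kinase C delta name, DB752711 had 7, 4, 12, 13 and 16 reads and was not called (day 16 against day 3, 1.10, -0.27 to 2.62). The other two had fewer than 30 reads and were not called.

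Cad96Ca is a receptor tyrosine kinase of Drosophila with a cadherin domain outside the cell. TC13298, so named, had 18, 21, 19, 35 and 81 reads and an RPKM of 4.10, 5.35, 6.09, 10.1 and 17.3, with the rise after day 9. Day 16 was called higher than day 3 (log2 ratio 2.07, 1.32 to 2.90), day 6 (1.69) and day 9 (1.50). NP9548259, with the same name and 75, 92, 65, 52 and 115 reads, stayed between an RPKM of 7.55 on day 12 and 12.4 on day 16. Its ratio on day 16 against day 3 was 0.52 (0.09 to 0.96) and was not called. The intervals of these 2 Cad96Ca members did not overlap. Because TC13298 was picked by its call on this ratio, that is a description and not a test. Other unigenes of this name had fewer than 10 reads and were not members.

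TC14558 was matched to ICK, a MAK-related kinase known in mammals for its place in cilia. It had 26, 19, 11, 45 and 91 reads and an RPKM of 7.41, 6.05, 4.41, 16.2 and 24.2, lowest on day 9. Between days 9 and 12 it was the only member called (log2 ratio 1.88, 0.90 to 2.98). Day 16 was called higher than day 3 (1.71, 1.07 to 2.40), day 6 (2.00) and day 9 (2.46, 1.55 to 3.51). NP9549194, matched to SBK1, a serine/threonine kinase, had 3, 11, 12, 12 and 36 reads and an RPKM of 0.705, 2.89, 3.97, 3.56 and 7.92. Its ratio on day 16 against day 3 was 3.49 (1.83 to 5.83), with an interval widened by the 3 reads on day 3.

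Phosphoenolpyruvate carboxykinase, which makes phosphoenolpyruvate from oxaloacetate in the synthesis of sugar, is not a protein kinase and entered by its name. TC15769 had 21, 23, 36, 40 and 101 reads and an RPKM of 4.35, 5.32, 10.5, 10.5 and 19.5. The step on day 16 was called against day 3 (log2 ratio 2.17, 1.48 to 2.92) and day 6 (1.88, 1.21 to 2.60). Another unigene of this name, TC17135, had fewer than 30 reads and was not called.

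**Figure D2:**
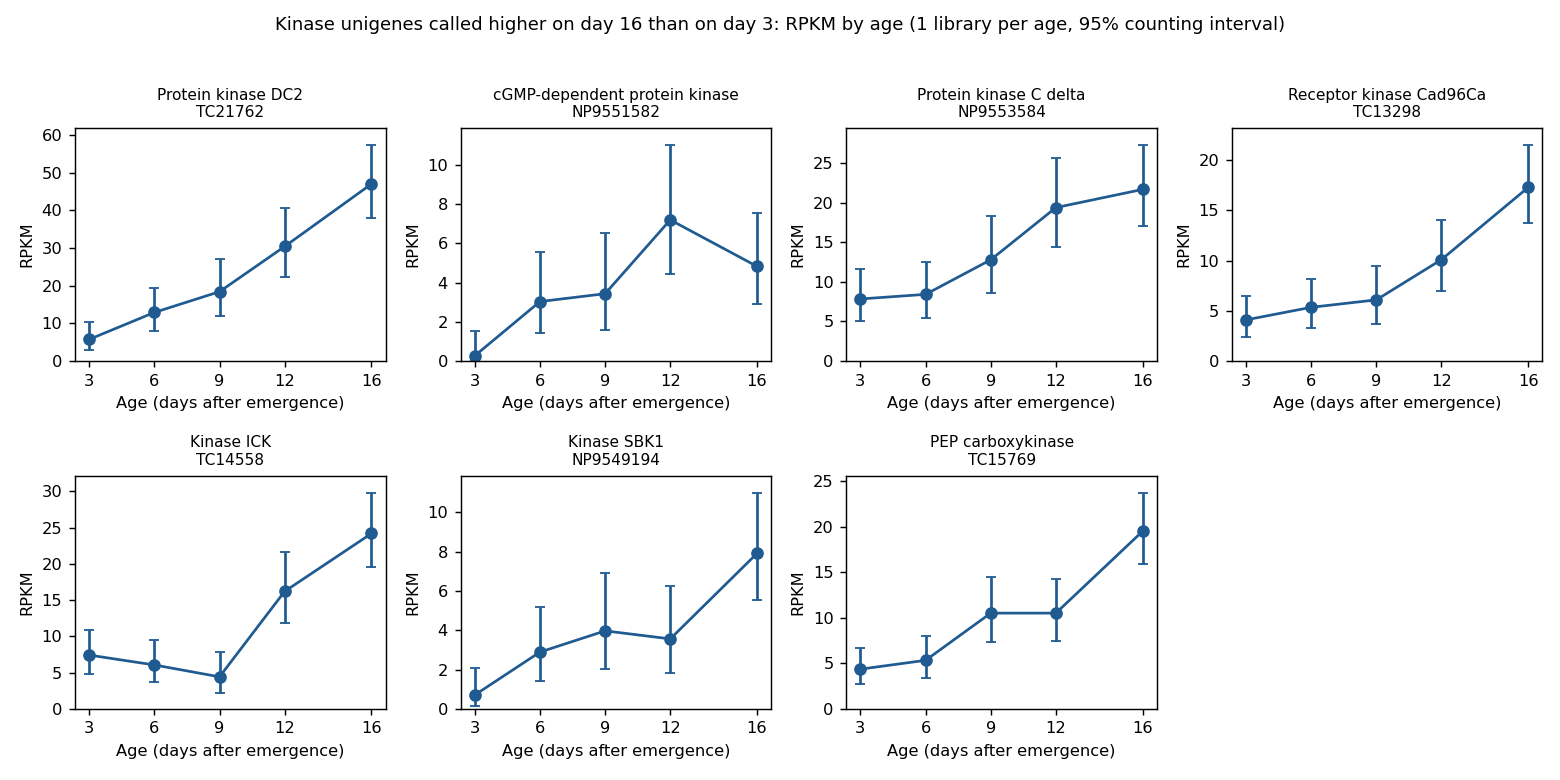
RPKM (vertical axis, linear from 0) against age in days for the 7 members called higher on day 16 than on day 3, with 95% exact Poisson intervals of the read count and 1 library per age. TC21762 ran from 5.75 on day 3 to 47.0 on day 16, and TC14558 was lowest on day 9, at 4.41.

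Muscle transcripts also rose in the same libraries, with calls against day 3 from day 6 on. Of 32 unigenes with names of muscle proteins such as troponin, tropomyosin and myosin heavy chain, 8 were called higher against day 3 by day 6, 11 by day 9, 16 by day 12 and 18 by day 16, and none lower. Their summed RPKM was 149, 470, 638, 839 and 1010. The shares of annotated unigenes called higher in these 4 comparisons were 0.775%, 2.13%, 3.2% and 5.23%. Names of neuronal proteins summed to 158, 155, 144, 128 and 173 over 32 unigenes. Against day 3, 1 was called higher and 2 lower on day 12, and 3 higher and 1 lower on day 16. The shares of annotated unigenes called lower were 1.81% and 0.807%. The median log2 ratio of the 32 to day 3 was -1.04 on day 12, where 2 had no read, and -0.54 on day 16. Relative to annotated unigenes these medians were -0.79 and -0.44. Names of fat body proteins summed to 7.28, 9.38, 5.17, 5.57 and 4.82 over 5 unigenes, with none called. Names in the haemocyte list summed to between 22.1 and 37.2 over 10 unigenes, and 1 was called lower on day 12 against day 3. That unigene, NP9549473, was matched to a disintegrin and metalloproteinase. It entered through the word integrin inside disintegrin and not as a haemocyte name, and its call was lost with TMM scaling, described below. Hemocytin (TC15331), also in that list, was called higher on day 16 than on day 6 (1.26, 0.84 to 1.69) and day 9 (1.02, 0.60 to 1.46). The gland's own product mrjp2 (TC24109), a major royal jelly protein, had an RPKM of 15900, 34000, 78400, 81200 and 37800. Gland RNA was thus present at every age, though this level does not measure the RNA of other tissues in the pools. The part of the muscle transcripts in the kinase calls was not tested. In pooled glands a change in the number of cells of a type and a change in RNA per cell cannot be told apart.

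Of 10 unigenes with names of G proteins and of adenylate and guanylate cyclases, 1 was called higher on day 12 and on day 16 against day 3 and none lower. Of annotated unigenes, 3.2% were called higher on day 12 and 5.23% on day 16. The median of the 10 relative to annotated unigenes was -0.40 on day 12, where 2 had no read, and 0.28 on day 16. A link between this list and the kinase calls was not tested. The unigene called was NP9549396, matched to adenylate cyclase type 2, which makes cyclic AMP, with 1, 8, 11, 25 and 44 reads. Its log2 ratio to day 3 was 4.98 (2.37 to 10.34) on day 12 and 5.36 (2.81 to 10.7) on day 16. A G(i) subunit alpha, NP9553181, had 18, 21, 20, 12 and 27 reads and was not called.

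On day 12 the members lower than on day 3 were a kinase of a MAP kinase cascade, a leucine-rich repeat kinase and a cyclin-dependent kinase. NP9553628 was matched to MAP4K3, a Ste20-family kinase known in flies and mammals for passing amino acid signals to TOR. It had 47, 36, 17, 8 and 44 reads and an RPKM of 9.59, 8.21, 4.88, 2.06 and 8.40. The log2 ratio on day 12 was -2.22 (-3.51 to -1.12) to day 3 and -1.99 to day 6, and day 16 was called higher than day 12 (2.03, 0.92 to 3.32). The level thus dipped on day 12 and stood on day 16 near that of day 3.

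TC23940, matched to leucine-rich repeat serine/threonine-protein kinase 1, a kinase with a GTPase domain, had the most reads of any member, 570. They were 148, 124, 78, 52 and 168, with an RPKM of 9.66, 9.04, 7.16, 4.29 and 10.2 and the same dip on day 12. The log2 ratio on day 12 was -1.17 (-1.66 to -0.71) to day 3 and -1.08 to day 6, and 1.26 (0.80 to 1.74) on day 16 to day 12. NP9553420 was matched to cell division protein kinase 4, which with D-type cyclins drives entry into the cell cycle. It had 19, 7, 4, 1 and 9 reads, and its ratio on day 12 to day 3 was -3.91, with an interval of -9.29 to -1.26 that rests on 1 read on day 12.

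**Figure D3:**
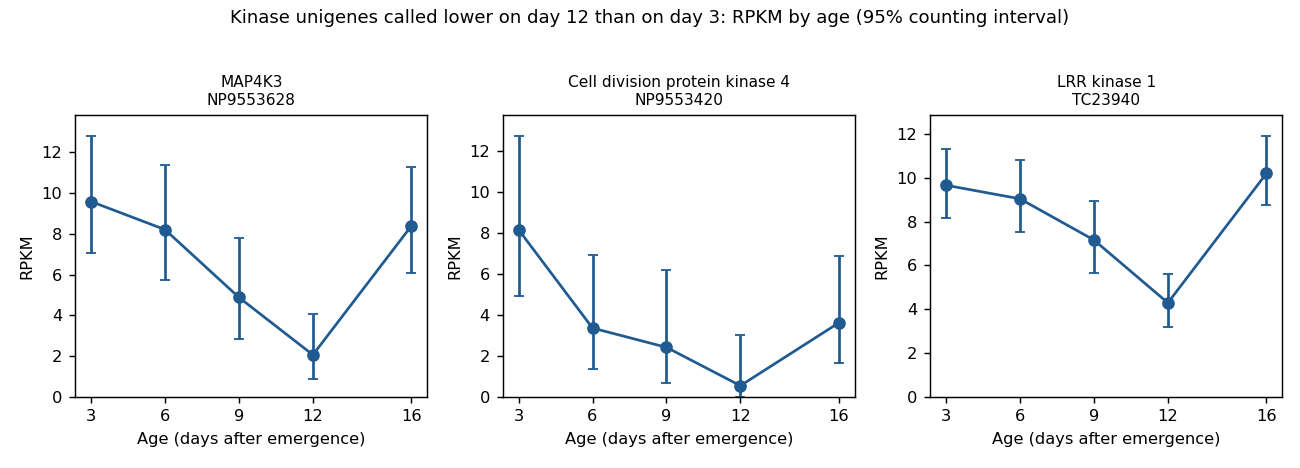
RPKM (vertical axis, linear from 0) against age in days for the 3 members called lower on day 12 than on day 3, with 95% exact Poisson intervals of the read count and 1 library per age. All 3 were lowest on day 12, at 2.06 (NP9553628), 0.541 (NP9553420) and 4.29 (TC23940).

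The 3 lower calls depended on how the libraries were scaled. TMM, a scaling in which the bulk of unigenes sets the level, moved the median annotated unigene by 0.59 on day 12 and by 0.46 on day 16 against day 3. With it the ratios on day 12 were -1.62 for NP9553628, -0.57 for TC23940 and -3.31 for NP9553420, and none was called. The higher call of NP9553628 from day 12 to day 16 was also lost (1.89), while that of TC23940 was kept (1.12). The higher calls on day 16 against day 3 were all kept with TMM, and those on day 12 rose from 2 to 6 with NP9553584, TC13298, TC14558 and TC15769.

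The median member lay below the median annotated unigene on day 12 and level with it on day 16. Against day 3 the median log2 ratio of the 117 members was -0.04, -0.28, -0.57 and -0.10 on days 6, 9, 12 and 16, which was -0.06, -0.14, -0.33 and 0.0 relative to annotated unigenes. From day 12 to day 16 it was 0.55, or 0.30 relative to annotated unigenes, and 80 members (68.4%) had a higher RPKM on day 16, beside 59.9% of annotated unigenes. The lowest RPKM fell on day 12 in 47 members (40.2%), beside 31.0% of annotated unigenes, and with TMM in 33 (28.2% beside 20.8%). These are descriptions without a test. With members and annotated unigenes that had no read set to 3 reads, the relative median on day 12 was 0.0.

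By class, the kinases of the cell cycle, the calcium/calmodulin and AMPK-like kinases and the casein kinase 2, DYRK and HIPK group had the lowest medians on day 12. Relative to annotated unigenes their median log2 ratios to day 3 were -1.10, -0.91 and -1.18, and -0.91, -0.62 and -0.71 with unread members set to 3 reads. Tyrosine kinases stood at -0.32, other protein kinases at -0.49, lipid and inositol kinases at -0.37 and the MAP kinase and Ste20 group at -0.18. AGC kinases were at 0.35, metabolite and nucleotide kinases at 0.19 and kinase-binding proteins at 0.26. From day 12 to day 16, a comparison that shares the day 12 library with the values above, the medians were 1.05 in the calcium/calmodulin and AMPK-like class, 0.71 in the casein kinase 2 class, 0.64 in the cell cycle class and -0.14 in the AGC class. With unread members set to 3 reads these 4 medians became 0.43, -0.44, 0.61 and -0.40, so those of the calcium/calmodulin and casein kinase 2 classes depended on members without a read on day 12.

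**Figure D4:**
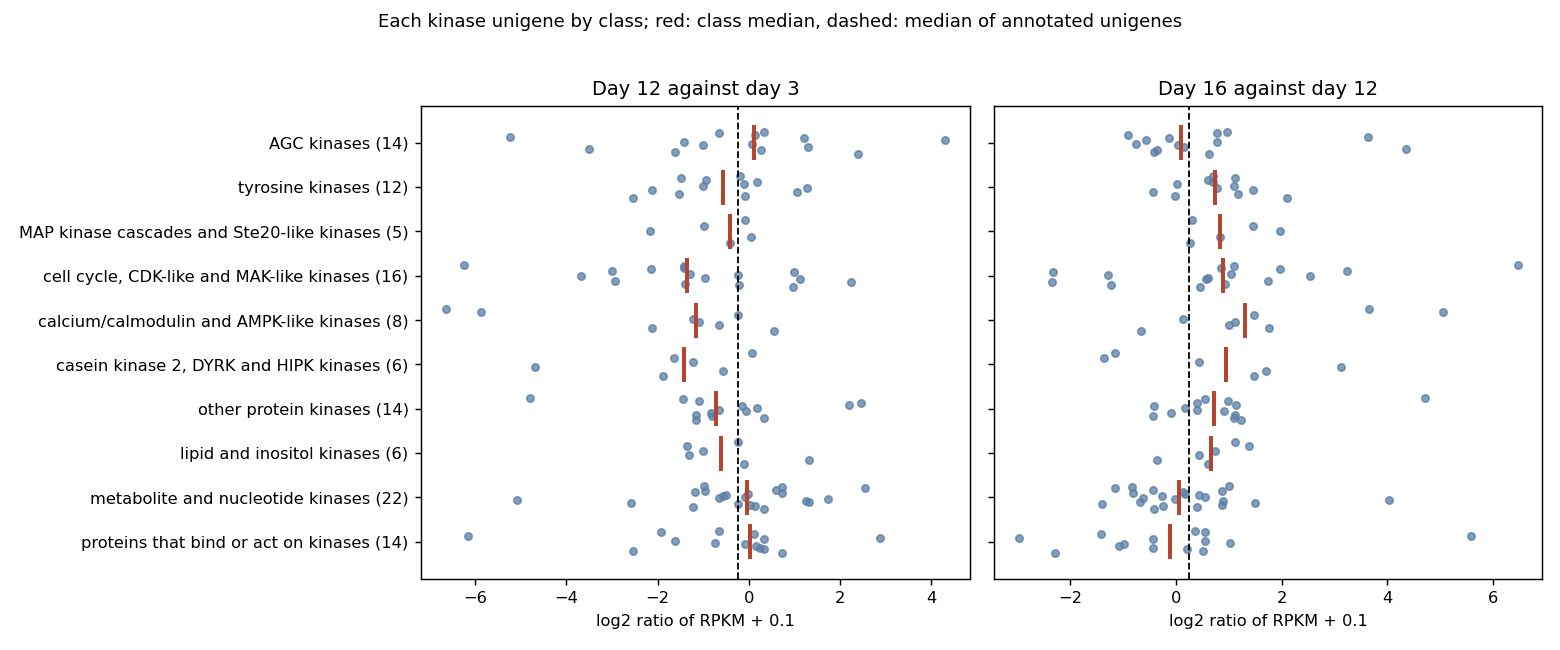
Log2 ratio of RPKM (with 0.1 added) of each of the 117 members, in rows by class with the number of members in brackets, on day 12 against day 3 (left) and day 16 against day 12 (right). Red bars are class medians and the dashed line the median of annotated unigenes, and the cell cycle class lay at -1.35 on day 12 and at 0.89 on day 16 against day 12.

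In the cell cycle class no member other than ICK and cell division protein kinase 4 was called. Chk2, a checkpoint kinase of the DNA damage response (NP9551382), had an RPKM of 9.39, 9.13, 6.89, 2.06 and 8.40, with 4 reads on day 12 against 23 on day 3. Its ratio of -2.19 (-4.18 to -0.64) was not called, and on day 16 it was at -0.16 to day 3. Nek5 (TC13938), of a family of centrosome and cilium kinases, had an RPKM of 4.41, 2.76, 2.23, 2.23 and 3.46. Of the 7 unigenes with names of cyclins, the partners of cyclin-dependent kinases, none was called in any comparison with day 3. The most read, cyclin-B3 (NP9553466), had 21, 15, 10, 9 and 23 reads, and cyclin-Y (NP9553194) had 8, 13, 11, 6 and 17.

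Of the tyrosine kinases, activated CDC42 kinase 1 (NP9549579), a cytoplasmic kinase that binds the GTPase Cdc42, had 47, 26, 22, 13 and 39 reads. Its ratio was -1.52 (-2.53 to -0.61) on day 12 to day 3 and 1.15 (0.21 to 2.18) on day 16 to day 12, and neither was called. Its lowest RPKM was on day 12. The other 9 members of the class, among them 3 with names of the Wnt receptor Ror, had between 15 and 95 reads and an RPKM between 0.239 and 7.09.

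In the MAP kinase and Ste20 class, MAP3K4 (TC16377), which acts in stress cascades, had an RPKM of 8.28, 8.53, 9.13, 6.15 and 7.43. PAK 2 (NP9553660), a kinase switched on by Rac and Cdc42, had 5.13, 8.34, 11.1, 5.30 and 9.59. Neither was called. Among unigenes with names of small GTPases or their regulators, TC13142, a Rac GTPase-activating protein, was called lower on day 12 than on day 3, with 29, 12, 7, 4 and 13 reads (day 12 to day 3, -2.52, -4.49 to -1.01), and its call was lost with TMM.

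Ribosomal protein S6 kinase-like 1 (TC18039) was the most even of the AGC kinases named here, with an RPKM of 6.75, 7.20, 6.90, 8.13 and 6.31 and ratios to day 3 between -0.10 on day 16 and 0.27 on day 12. The other 10 members of that class that were not named by rule had 10 to 52 reads.

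Among the calcium/calmodulin and AMPK-like kinases, death associated protein kinase (NP9553424) had an RPKM of 9.75, 13.2, 5.87, 6.16 and 12.4. Serine/threonine-protein kinase 11 (NP9553011), the LKB1 kinase that activates AMPK, had 4.97, 6.57, 3.18, 2.28 and 5.07. Both were lower on days 9 and 12 than on the other days, but the intervals of their ratios to day 3 on those days included 0. A testis-specific kinase match (NP9549881) had 9, 8, 5, 6 and 23 reads, and its ratio of 1.26 (0.09 to 2.55) on day 16 to day 3 was not called. In the casein kinase 2, DYRK and HIPK class, only a DYRK match (NP9552009) had 30 reads or more, with an RPKM of 9.25, 6.32, 5.06, 3.90 and 5.29, and no member was called.

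Other protein kinases included serine/threonine-protein kinase 36 (TC15148), the relative of Drosophila fused in hedgehog signalling, which had an RPKM of 9.44, 11.6, 9.96, 10.7 and 12.1 and showed little movement. An eIF2-alpha kinase (TC18048), of the family that slows translation under stress, had 8.33, 6.89, 3.57, 5.26 and 6.95. It was lowest on day 9, at -1.22 (-2.20 to -0.34) to day 3, and was not called.

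No lipid or inositol kinase was called. The most read, NP9552721, a class II phosphoinositide 3-kinase that phosphorylates membrane inositol lipids, had 74, 64, 46, 29 and 66 reads and an RPKM of 8.64, 8.35, 7.55, 4.28 and 7.20. Its ratio of -1.01 (-1.69 to -0.38) on day 12 to day 3 did not pass the false discovery threshold. Inositol trisphosphate kinases remove the calcium-releasing messenger IP3 by adding a phosphate. TC12402 had an RPKM of 9.61, 5.09, 6.04, 3.83 and 5.20, and TC22801 had 7.77, 9.07, 9.50, 7.26 and 11.1. Neither was called. None of 9 unigenes with names of lipid and inositol phosphatases, which reverse these steps, was called either. The most read of these were a phosphatidate phosphatase, TC17896, with 13, 26, 12, 15 and 26 reads, and a myotubularin-related protein, TC19570, with 5, 10, 8, 11 and 12.

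Among the metabolite kinases only phosphoenolpyruvate carboxykinase was called. Pantothenate kinase 4 (TC13431), of the family that begins coenzyme A synthesis, had an RPKM of 9.76, 9.64, 8.94, 6.88 and 9.34. Xylulose kinase (NP9551206), which phosphorylates the sugar xylulose, had 27, 28, 17, 21 and 32 reads. No kinase-binding protein was called. The most read, the guanylate kinase-associated protein TC14134, had 5.66, 7.10, 6.82, 3.36 and 6.91. The MOB-like kinase activator TC16962 had 8.51, 16.7, 12.0, 10.1 and 7.46, highest on day 6, and the activator of the RNA-dependent kinase TC19321 had 3.53, 5.08, 8.52, 4.46 and 5.19.

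The 84 members that the rule for naming did not take were all without a call in the 10 comparisons. They were 12 cell cycle kinases with 10 to 75 reads, 2 of the MAP kinase and Ste20 class with 22 to 50, 5 calcium/calmodulin and AMPK-like kinases with 13 to 38 and 3 of the casein kinase 2 class with 12 to 15. A further 10 other protein kinases had 11 to 100 reads, 3 lipid and inositol kinases 13 to 71, 19 metabolite and nucleotide kinases 10 to 97 and 11 kinase-binding proteins 10 to 33, beside the tyrosine and AGC kinases given above. The highest RPKM of these 84 at any age was 19.3, in an AGC kinase, the protein kinase C delta match DB752711 on day 9.

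Protein phosphatases, which remove the phosphates that protein kinases add, were measured in 25 unigenes. Only NP9547432, a protein phosphatase 1 regulatory subunit 3C of the kind that directs the enzyme to glycogen, was called in a comparison with day 3. It had 2, 5, 7, 5 and 21 reads, with a ratio of 3.30 (1.26 to 6.43) on day 16 to day 3. Of annotated unigenes, 5.23% were called higher on day 16 against day 3. The median phosphatase relative to annotated unigenes was -0.82 on day 12 and 0.22 on day 16, both to day 3. On day 12, 2 of the 25 phosphatases had no read, and no median with unread members set to 3 reads is given for this list. The most read were TC15716, with 31, 20, 23, 14 and 44 reads, and NP9552906, with 32, 25, 26, 9 and 24, both lowest on day 12.

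Kinases of the TOR pathway, which couples nutrients to protein synthesis, exceeded an RPKM of 10 on day 3 and so carried no annotation. AKT (TC15907), the most read of the 5 that the study named, had 561, 413, 192, 101 and 251 reads and was lower on day 12 than on day 3 by a log2 ratio of -2.14 (-2.46 to -1.83), a call also kept with TMM (-1.54). RSK, PI3K, TOR and S6K were also called lower on day 12, at -1.51, -1.08, -1.45 and -1.54, and each of these calls was lost with TMM. The 5 came from the study's list of TOR pathway genes that differed between these same libraries, all of which it reported as downregulated. Their lower calls thus followed from that choice and are not separate evidence of a fall. Of all unigenes tested, 12.5% were called lower on day 12 against day 3. Against day 3, AKT was called lower on day 9 (-1.06) and day 16 (-1.26) as well, RSK on day 9 (-1.02) and S6K on day 16 (-1.10). AKT was called lower on day 12 than on day 9 (-1.08), and PI3K higher on day 16 than on day 12 (1.05). These further calls were all lost with TMM.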

How the data were processed

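RNA of HGs from 30 pooled bees was sequenced at each of 5 ages on an Illumina instrument. The authors filtered the reads and aligned them to the unigenes of the honey bee gene index with SOAP2, of a version not given in the sources used here, allowing 2 mismatches. What the authors deposited as a count is the number of reads that match 1 unigene alone, and the deposited RPKM was computed by the authors from that count, the unigene length and the library total. No source used here states that strand was used, so overlapping antisense transcripts cannot be told apart. The deposited annotation gave names only to unigenes with a read and an RPKM under 10 on day 3.

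From the counts, each pair of libraries was compared by the two-sided test of Audic and Claverie, adjusted by Benjamini and Hochberg over all unigenes with a read in either library, with the thresholds of the study's methods. Ratios carry 95% exact (Clopper-Pearson) intervals, and medians use RPKM with 0.1 added. Class was set from the name alone. The members named in the text are those called against day 3 or on day 16 against day 12 and the 3 most read of each class. Members under 30 reads are given as counts unless called. Of phosphatases, cyclins, small GTPases and cyclases, the 2 most read and those called against day 3 are named, except that part of the small GTPase list is not reported here. Tissue markers are given mainly as counts. Partners of the same name as a called member were added after their values were seen. Members and lists were chosen with earlier results of these data known. The alternatives were TMM scaling and an assumed coefficient of variation of 0.2 (edgeR 4.0.16), Fisher's exact test, minimums of 1 and 50 reads, a pseudocount of 1, a floor of 3 reads and the protein and lipid kinases alone. The test was tested on simulated data. Python 3.11.15, scipy 1.17.1 and R 4.3.3 were used.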

Additional observations from a re-analysis of the deposited data

How the results depend on the processing

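Of 25 calls of members over the pairs of ages, Fisher's exact test kept 25, TMM scaling 19 and an assumed coefficient of variation of 0.2 kept 1. The direction of a call could not change in these alternatives. Fisher's test and the assumed variation used the same ratio, and TMM moved ratios by at most 0.59, less than the 1 that a call needed. With TMM 2 members were called higher on day 9 and 6 on day 12 relative to day 3, 1 member was called higher from day 12 to day 16, and 0 were lower on day 12. With the assumed variation, 1 member was called higher on day 16 relative to day 3, and 0 were called in the other comparisons in which the main test made calls of members (day 12 relative to days 3, 6 and 9, and day 16 relative to days 6, 9 and 12). The true variation between replicates is not known from these libraries, since each age has 1, so no library could be left out. No paired analysis was possible because each age has 1 library. The median relative to annotated unigenes on day 12 against day 3 was -0.59 for the protein and lipid kinases alone and 0.0 with a floor of 3 reads, and on day 9 it was -0.30 for the protein and lipid kinases alone. With TMM the highest RPKM fell on day 3 in 15 members, on day 12 in 26 and on day 16 in 39, and the lowest on day 3 in 32. Counting reads set a limit of its own. On day 12 against day 3 a unigene without a read on day 3 needed 12 reads to be called, though every member had a read on day 3. A fall to 0 could be called only from 16 reads, which 30 members had.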

Other observations

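The kinases that the choice by name left out included the myosin light chain kinases of muscle, which phosphorylate myosin. Of 6 unigenes with this name, 3 were called higher against day 3 by day 6, 3 by day 9, 4 by day 12 and 3 by day 16, and the most read, NP9550065, had 86, 221, 384, 495 and 786 reads. Its log2 ratio to day 3 was 1.52 (1.16 to 1.90) on day 6, an age at which no member of the set was called. It had 1972 reads over all libraries, against 570 for the most read member, so a call was easier to reach for it. Of annotated unigenes, 0.775%, 2.13%, 3.2% and 5.23% were called higher on days 6, 9, 12 and 16 against day 3. A further pair was left out for the word mitochondrial. The A kinase anchor protein 10 match (NP9550732), which holds cAMP-dependent protein kinase in place, had 14, 17, 8, 3 and 13 reads, and the PINK1 match (TC20572), a kinase of mitochondrial quality control, had 4, 5, 1, 0 and 6. The 49 kinase names with fewer than 10 reads summed to 83, 50, 37, 30 and 51 reads over the ages, too few for any of them to be called, since the fewest reads that allowed a call in any comparison were 11.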
